A study of Mus musculus with 28 samples.

Results

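Cytosolic ribosomal proteins are the protein subunits of the ribosomes that translate messenger RNA outside the mitochondria. Their genes were taken as all 1-gene probe sets whose symbol starts with Rpl or Rps and a digit, or is Rplp0, Rplp1, Rplp2 or Rpsa, without the Rps6k kinases and without annotated pseudogene symbols that contain "-ps". The rule found 387 probe sets of 76 genes, out of 18820 genes named by a 1-gene probe set in all. They comprise 39 proteins of the large subunit, 25 of the small subunit, 3 proteins of the P stalk, and 9 genes that are paralogs or are named after a ribosomal protein without being a canonical subunit. Of the 77 canonical subunit genes that the rule could reach, 67 were found, and the others were not analysed here. Where several probe sets name a gene, as for 56 of them, the brightest on average over the 28 arrays stands for it. None of the 76 was removed for a low value.

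The livers came from 28 male C57BL/6J mice, with 1 array for each mouse, and every mouse was on an intermittent diet when sampled. This diet repeats a cycle of 1 week on moderate-fat food without limit (25% of energy as fat) and 1 week in which intake was held to 60% of what control mice ate. The lifelong groups entered the cycle when 9 weeks old, and 6 of these mice were sampled at an age of 6 months, 7 at 12 months and 7 at 24 months. The switched group (n = 8) ate the moderate-fat food continuously until 12 months, went onto the alternation then, and was sampled at 24 months. All mice were fasted for 4 hours, gavaged with carboxymethyl cellulose and fasted for 6 hours more before sampling. Age and time on the diet increase together in the lifelong groups, so their parts cannot be told apart, and which week of the cycle each mouse was in is not stated in the labels. Each group spans array batches G150, G151 and G152, which were read from the array names. The array medians lay between 5.23 and 5.31 log2 units. The 8 hepatocyte markers found, such as Alb and Ttr, had summed linear levels between 63432 and 71621 in the 28 livers. The number of arrays limits the precision of every difference.

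A ribosome holds close to equal numbers of each of its proteins, and their genes are transcribed at high and matched rates in most cells. Their messenger RNAs begin with a run of C and T bases, the terminal oligopyrimidine tract, through which the mTOR pathway and the RNA-binding protein Larp1 set how much of the messenger is translated. The liver makes plasma proteins in large amounts and adjusts its ribosome content to feeding and fasting. Arrays measure the abundance of these messengers and not their translation.

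The sequences at the transcription starts of the 6 genes that passed the test in any comparison are shown because the tract at the start is the shared regulatory feature of this family. The RefSeq promoter windows of build GRCm38.p6 cover 250 bases before to 50 after an annotated start, and 62 of the 76 genes have at least 1, with 74 windows in all. Below, each line runs from 70 bases before to 30 bases after the start, 5′ to 3′ on the gene's strand. Capitals mark the longest run of C and T on that strand that touches the 10 bases on either side of the start, and any match to the motifs searched. The windows lie at chr2:32961642-32961741 on the plus strand for Rpl12, chr15:5116543-5116642 on the plus strand for Rpl37, chr10:128626477-128626576 on the minus strand for Rps26, and chr3:86142639-86142738 on the minus strand for Rps3a1. Those of Rpl10a lie at chr17:28328401-28328500 and chr17:28328495-28328594, both on the plus strand, and that of Rps23rg1 at chr8:3567928-3568027 on the plus strand.
Rpl12: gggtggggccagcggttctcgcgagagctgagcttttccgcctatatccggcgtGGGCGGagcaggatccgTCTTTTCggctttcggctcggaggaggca
Rpl37: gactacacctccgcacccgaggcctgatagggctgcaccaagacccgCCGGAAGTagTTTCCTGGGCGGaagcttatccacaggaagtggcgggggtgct
Rps26: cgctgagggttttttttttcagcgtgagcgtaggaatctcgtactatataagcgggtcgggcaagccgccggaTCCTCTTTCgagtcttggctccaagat
Rps3a1: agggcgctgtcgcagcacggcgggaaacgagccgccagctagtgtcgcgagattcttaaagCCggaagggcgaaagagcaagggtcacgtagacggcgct
Rpl10a, first start: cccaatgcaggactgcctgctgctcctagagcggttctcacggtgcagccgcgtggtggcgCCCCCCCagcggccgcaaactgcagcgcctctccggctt
Rpl10a, second start: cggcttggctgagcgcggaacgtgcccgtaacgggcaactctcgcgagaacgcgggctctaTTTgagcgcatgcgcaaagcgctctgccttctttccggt
Rps23rg1: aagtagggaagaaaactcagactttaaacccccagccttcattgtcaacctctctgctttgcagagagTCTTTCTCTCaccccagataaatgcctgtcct

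The runs of C and T differ in place and length among these genes. In Rpl12 the run TCTTTTC covers positions 2 to 8 after the start, and in Rps26 a run of 9 bases covers positions 4 to 12. In Rps23rg1 the run is 10 bases long and reaches from position -2 to 8. In Rps3a1 it is only 2 bases long and lies before the annotated start. The runs of Rpl37 (-13 to -8) and of both Rpl10a starts (-9 to -3 and -9 to -7) also lie before it. Such runs are not part of the messenger as annotated, but the lengths and shares that follow count them too. Over all 74 windows the median run was 6 bases and the longest 21, against a median of 4 in the 32851 windows of the whole RefSeq table. A run of at least 8 bases was present in 40.5% of the ribosomal protein windows and in 13.7% of all windows, and a run of at least 5 bases in 66.2% and 44.9%. Motifs were searched in the full windows of 300 bases on both strands, and a match to one motif may overlap a match to another. The GABPA motif CCGGAAGT was in 16.2% of ribosomal protein windows and 3.89% of all windows, the SP1 motif GGGCGG in 58.1% and 35.7%, the YY1 motif AAGATGGC in 10.8% and 2.75%, and the TATA box letters TATAAA in 9.46% and 13.6%. Rpl37 holds the GABPA letters from position -23 and SP1 letters from -146 and -7, and Rpl12 holds SP1 letters from -16. These are matches of letters and not measured binding.

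At 12 with 6 months, most ribosomal protein genes were slightly lower and none passed the test. In limma, with p adjusted over all 35556 probe sets, 0 of the 76 genes passed, where 0.591% of all probe sets did. At an unadjusted p under 0.05, 27 were lower and 2 higher, where 6.45% of all probe sets were lower and 6.6% higher. No other tool was run. The fitted difference was negative for 67 of 76 genes (88.2%), against 49.6% of all probe sets. Its median over the 76 genes was -0.075 on the log2 scale, a change of -5.07%, where the median over all probe sets was 0.0012. The bright comparison set was 2084 other genes at least as bright as the lower quartile of the family, a mean of 9.23 log2 units. Of these, 45.2% were negative, the median was 0.016 and 2.64% passed. At an unadjusted p under 0.05, 200 of them were lower and 361 higher. The median over the 76 genes was -0.072, -0.060 and -0.14 within batches G150, G151 and G152, where G152 compares 1 liver with 1. In bulk liver, fewer cells of a type and less RNA for each cell cannot be told apart.

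The P stalk, which recruits and activates the elongation factors, held the largest negative difference at 12 months, that of Rplp2, whose 1 probe set has a mean of 5.26, no brighter than the array medians. No detection call was made for it. Rplp2, one of its acidic proteins, ranged from 5.44 to 5.63 at 6 months with a median of 5.54, and from 4.74 to 5.45 at 12 months with a median of 5.00. The highest 12-month liver lay just above the lowest 6-month liver, so the groups overlap by that pair. The difference was -0.45 ± 0.11 (SE), lower in 7 of 7 livers than the 6-month mean, with an adjusted p of 0.0595 in limma. It passed without replicate 1 at 6 months, or without replicate 1 or 7 at 12 months, with adjusted p of 0.0383 to 0.0459. Rplp0, the stalk's scaffold and a common reference gene in quantitative PCR, ranged from 12.47 to 12.60 at 6 months and from 12.25 to 12.49 at 12 months. The 3 highest 12-month livers lay within the 6-month range. The difference was -0.15 ± 0.053, with an adjusted p of 0.208 in limma. Rplp1, the other acidic protein, differed by -0.051 with an adjusted p of 0.75.

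Proteins of the large subunit had a median difference of -0.096 at 12 months, with 36 of 39 negative. Rpl24, which forms a bridge between the subunits, ranged from 10.13 to 10.32 at 6 months, with a median of 10.15, and from 9.90 to 10.08 at 12 months, with a median of 10.03. All 12-month livers lay below all 6-month livers, the only one of the 76 genes for which this held, and 0.329% of all probe sets separated the groups in that direction. The difference was -0.20 ± 0.055 with an adjusted p of 0.0953 in limma, and 0.0454 after a repeated quantile normalization. Rpl15 differed by -0.19, Rpl27a by -0.23 and Rpl12 by -0.16, each lower than the 6-month mean in 7 of 7 livers, with adjusted p from 0.0964 to 0.109 in limma. Rpl15 passed without replicate 2 at 12 months, with an adjusted p of 0.0455. Rpl5 and Rpl11, which carry the smallest ribosomal RNA into the large subunit and can bind Mdm2, differed by -0.083 and -0.017.

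Proteins of the small subunit had a median difference of -0.070 at 12 months, with 23 of 25 negative. Rpsa, which is also known as a laminin receptor, differed by -0.26 ± 0.11 and Rps26 by -0.20 ± 0.069, with adjusted p of 0.284 and 0.178 in limma. Rps6, the substrate of the S6 kinases, spanned 12.90 to 12.96 at 6 months and 12.81 to 13.01 at 12 months, so the younger livers lay inside the range of the older ones. Its difference was -0.022 ± 0.035, with an adjusted p of 0.859 in limma.

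The 9 paralogs and namesakes had a median difference of -0.0062 at 12 months, with 5 of 9 negative, and their difference from the canonical genes was not tested. Rps23rg1, a retrogene copy of Rps23, was the gene with the largest positive difference. It ranged from 5.53 to 6.16 at 6 months with a median of 5.79, and from 5.71 to 7.13 at 12 months with a median of 6.49. A single 12-month liver lay within the range of the 6-month livers, and the difference was 0.73 ± 0.22 with an adjusted p of 0.115 in limma. Without replicate 1 at 12 months the adjusted p was 0.0356. Rps27l, a paralog of Rps27 that p53 induces, was higher than the 6-month mean in 7 of 7 livers, with a difference of 0.16 and an adjusted p of 0.352, while Rps27 itself differed by -0.058.

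**Figure D1:**
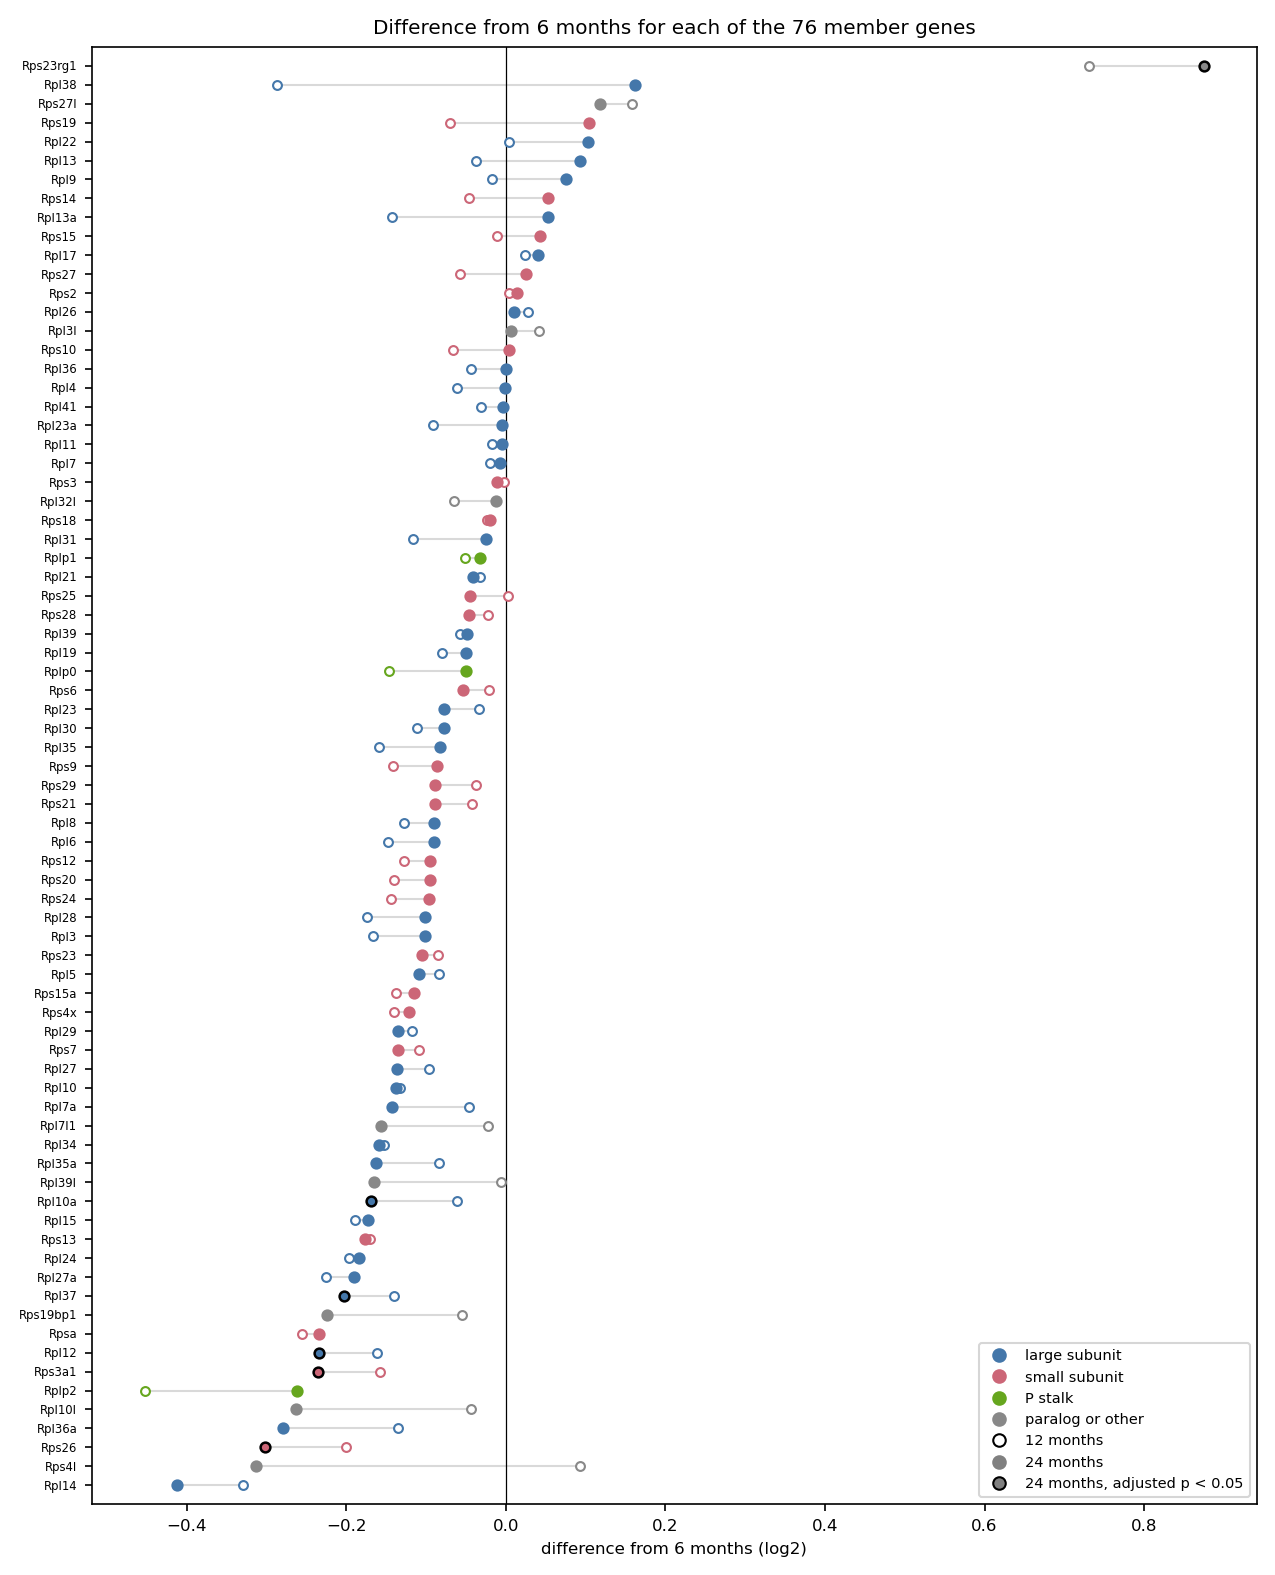
Fitted difference from the 6-month livers (log2, horizontal axis) for each of the 76 genes, ordered by the difference at 24 months, with open circles for 12 months and filled circles for 24 months, coloured by subgroup and ringed in black where the adjusted p at 24 months was under 0.05. At 12 months 67 of the 76 circles lie left of 0 and at 24 months 59 do, and Rps23rg1 stands alone at the right.

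At 24 with 6 months, 5 canonical ribosomal protein genes fell and 1 retrogene rose, and the other 70 did not pass the test. In limma 6 of 76 genes passed, where 4.73% of all probe sets did: 5 fell, against 2.63% of all probe sets, and 1 rose, against 2.1%. Among the 2084 other bright genes the shares were higher than among all probe sets: 12.8% passed and 5.57% fell, beside 7.89% and 6.58% of the 76. At an unadjusted p under 0.05, 27 were lower and 1 higher, where 11.2% of all probe sets were lower and 8.04% higher. Of the 2084 other bright genes, 355 were lower and 369 higher at that limit. The difference was negative for 59 of 76 genes (77.6%), against 54.4% of all probe sets and 49.9% of the 2084 other bright genes. The median was -0.087, a change of -5.88%, where the median over all probe sets was -0.016 and that of the other bright genes 0.00053. Among the 76, 5 genes had all 24-month livers below all 6-month livers, namely Rpl10a, Rpl24, Rpl27, Rpl37 and Rps26. In that direction 0.83% of all probe sets separated, and 48 of the 2084 other bright genes. Within batches G150, G151 and G152 the median was -0.090, 0.0053 and -0.14, and the value of G151 compares 1 liver with 1. Without replicate 6 at 6 months the median over the 76 genes was -0.056, and without replicate 4 at 24 months -0.057. Within batch G150 alone and within the other batches alone no gene passed, and 2 did when only the groups compared were fitted.

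Rpl12, which sits at the base of the P stalk, had the smallest p of the family. Its level ranged from 12.28 to 12.46 at 6 months with a median of 12.36, from 12.15 to 12.30 at 12 months with a median of 12.21, and from 11.99 to 12.30 at 24 months with a median of 12.12. A single 24-month liver, replicate 7 of batch G151, reached the range of the 6-month livers. The gene fell by 0.23 ± 0.047 on the log2 scale, 1.18-fold lower, with an adjusted p of 0.00541 in limma. Of its 8 probe sets, all were lower and 6 fell.

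Rpl37, a small zinc-binding protein of the large subunit, ranged from 11.11 to 11.23 at 6 months with a median of 11.18, and from 10.78 to 11.04 at 24 months with a median of 10.98. No 24-month liver reached the lowest 6-month liver. The gene fell by 0.20 ± 0.045, with an adjusted p of 0.0103 in limma, and both of its probe sets fell. Rpl10a, the protein of the mobile stalk beside the tRNA exit site, ranged from 11.91 to 12.01 at 6 months with a median of 11.99, and from 11.70 to 11.89 at 24 months with a median of 11.83. Its groups did not overlap either, and it fell by 0.17 ± 0.049 with an adjusted p of 0.0428 in limma. The call of Rpl10a was lost without replicate 1, 2, 3, 5 or 6 at 6 months, and without replicate 1, 3, 4, 5 or 6 at 24 months, with adjusted p of 0.0564 to 0.122. Of its 4 probe sets, 2 fell and the other two were also lower.

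Rps26, which lines the channel where the messenger leaves the small subunit, showed the largest fall. It ranged from 12.21 to 12.40 at 6 months with a median of 12.31, from 11.95 to 12.31 at 12 months with a median of 12.09, and from 11.90 to 12.07 at 24 months with a median of 12.02. The 12-month livers spread over both of the other ranges, while the 24-month livers all lay below the 6-month livers. The fall was 0.30 ± 0.069, 1.23-fold, with an adjusted p of 0.0120 in limma, and all 3 of its probe sets fell. Rps3a1, a neighbouring protein of the small subunit's platform, ranged from 9.26 to 9.52 at 6 months with a median of 9.35, and from 8.93 to 9.27 at 24 months with a median of 9.11. The highest 24-month liver, replicate 7, lay above the lowest 6-month liver alone, and the gene fell by 0.24 ± 0.058 with an adjusted p of 0.0200 in limma. Without replicate 6 at 6 months its adjusted p was 0.0983, and without replicate 3 at 24 months 0.0542. Rpl12, Rpl37 and Rps26 passed without each of the 13 livers of the comparison in turn.

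Rps23rg1 was the one gene of the family that rose. At 24 months its level ranged from 6.24 to 7.47 with a median of 6.73, and all 7 livers lay above the 6-month livers, as held for 0.858% of all probe sets. The rise was 0.87 ± 0.22, 1.83-fold, with an adjusted p of 0.0199 in limma. Without replicate 2 or 3 at 6 months the adjusted p was 0.0509 or 0.0555. Its parent Rps23, whose product is part of the decoding centre, differed by -0.10 with an adjusted p of 0.158 in limma. The array has 1 probe set for the retrogene, with a mean of 6.39 log2 units where the array medians lay between 5.23 and 5.31. Because the copy is close to its parent in sequence, how far the probes tell them apart was not tested.

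**Figure D2:**
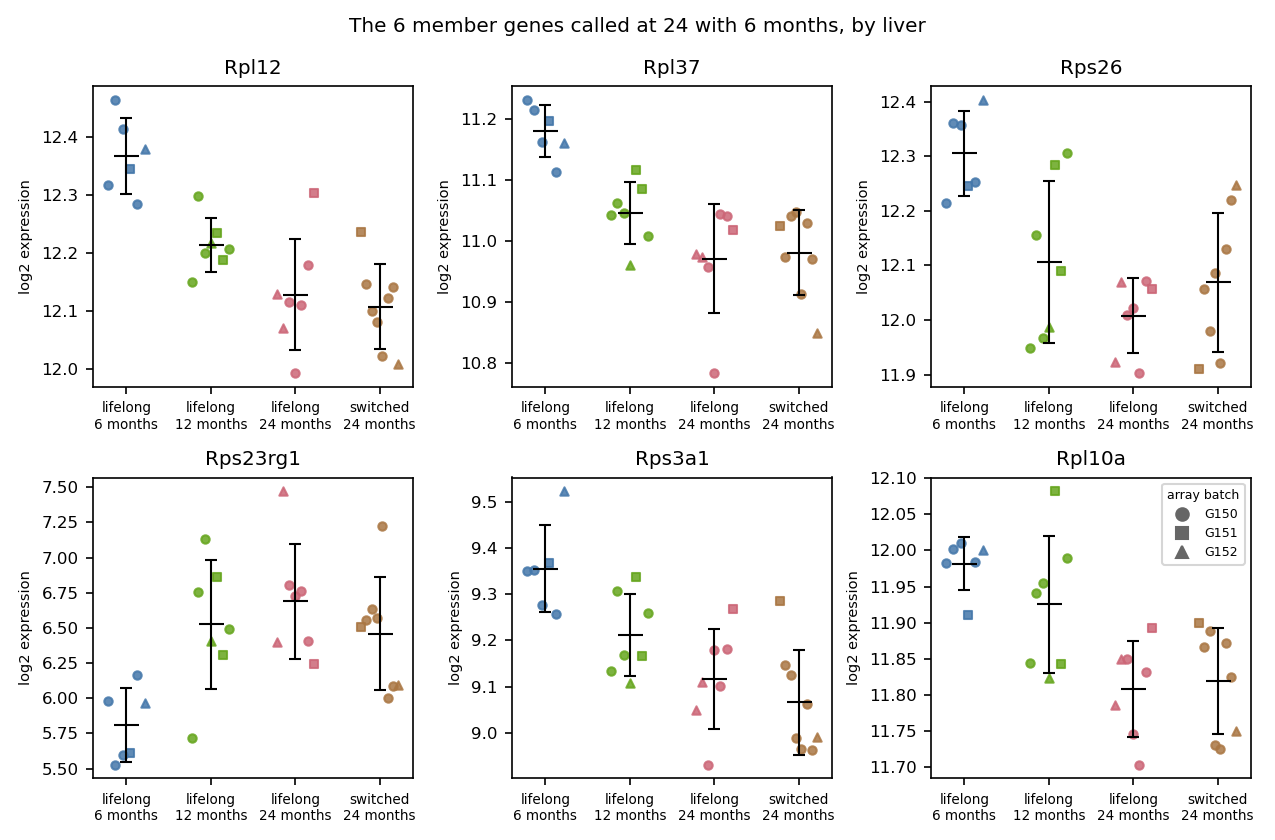
Log2 expression (vertical axis, a separate scale in each panel) of the 6 genes that passed at 24 with 6 months, 1 point for each liver, with point shapes for array batches and bars for the group mean ± SD (n = 6, 7, 7 and 8). In Rpl37, Rps26 and Rpl10a every 24-month liver lies below every 6-month liver, and in Rps23rg1 every 24-month liver lies above.

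The remaining large-subunit genes gave a median of -0.083 over all 39, with 31 negative and 3 passing. Rpl14 had the largest negative difference of the family, -0.41 ± 0.15, with an adjusted p of 0.117 in limma. Its 1 probe set is dim, with a mean of 6.00 log2 units where the array medians lay between 5.23 and 5.31. The level of Rpl14 ranged from 5.68 to 6.69 at 6 months and from 5.63 to 6.12 at 24 months. In this range 1 low 6-month liver, replicate 5, set the overlap. Without that liver Rpl14 passed, with a difference of -0.53 and an adjusted p of 0.0289. Rpl24 differed by -0.18 with an adjusted p of 0.052, and Rpl15 by -0.17 with an adjusted p of 0.0598. Rpl38, known for its part in translating Hox messengers in the embryo, had the largest positive difference among canonical genes, 0.16 ± 0.11, with an adjusted p of 0.458. Rpl5 differed by -0.11 and Rpl11 by -0.0051, with adjusted p of 0.267 and 0.977 in limma. The sign for Rpl11 turned under 7 alternatives. The 6 probe sets of Rpl11 were all lower, from -0.063 to -0.0051 with a median of -0.041, and none passed.

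In the small subunit, 19 of 25 genes were negative at 24 months, with a median of -0.088 and 2 passing. Rpsa differed by -0.23 ± 0.11, with an adjusted p of 0.214 in limma, and Rps6 by -0.054, with an adjusted p of 0.434. The 5 probe sets of Rpsa were all lower, from -0.23 to -0.042 with a median of -0.095. In the P stalk the differences were -0.050 for Rplp0, -0.032 for Rplp1 and -0.26 for Rplp2, and the adjusted p were 0.678, 0.81 and 0.186. All 3 stalk genes were higher at 24 than at 12 months by estimate, by 0.096, 0.019 and 0.19, with none passing. Among the 17 measured genes of the list of Diamond-Blackfan genes, whose mutation causes a human failure of red cell production, 1 (Rps26) fell, 12 were negative and the median was -0.083, beside a median of -0.087 for the whole family.

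Paralogs and their canonical partners differed as follows at 24 months. Rpl3l, a striated muscle paralog of Rpl3, spanned 3.33 to 3.62 over the 6-month and 24-month livers, below the array median of every array, and differed by 0.0066, against -0.10 for Rpl3. Rpl39l and Rpl10l, known from testis, also lay below the array medians, between 2.72 and 3.17 and between 4.06 and 4.90. They differed by -0.17 and -0.26, with adjusted p of 0.169 and 0.257 in limma, where Rpl39 and Rpl10 differed by -0.049 and -0.14. No detection call was made, so a level this low does not show that the gene was expressed. Rpl7l1 differed by -0.16 and Rpl7 by -0.0072. Of the 4 probe sets of Rpl7, 1 was lower, and their median was 0.051. Rps4l, annotated in RefSeq as a transcribed pseudogene, ranged from 7.01 to 7.55 at 6 months and from 6.67 to 7.04 at 24 months. It differed by -0.31 ± 0.10 with an adjusted p of 0.0784, beside -0.12 for Rps4x, the X-linked subunit gene. Rps19bp1, whose product regulates Sirt1 and is no ribosomal subunit, differed by -0.22 with an adjusted p of 0.0915. Rps27l differed by 0.12 and Rps27 by 0.026. The difference between a paralog and its partner was not tested.

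Genes with several probe sets gave a further view of the same transcripts, although probe sets of a gene read the same RNA and are not independent. Ribosomal protein genes have many processed copies in the genome, and the number of 1-gene probe sets reached 41 for Rpl21, 24 for Rpl29 and 18 for Rps2. Which probe sets also read such copies was not tested. Over all 387 probe sets, 29 (7.49%) fell and 1 rose at 24 with 6 months in limma, against 2.63% and 2.1% of all probe sets. Of the 387, 303 (78.3%) were lower, against 54.4%. Among the 2084 other bright genes 5.57% fell and 49.9% were lower. Of the 29 that fell, 9 were probe sets of Rpl7a and 6 of Rpl12. At 12 with 6 months 1 (0.258%) fell, against 0.228% of all probe sets, and 342 (88.4%) were lower, against 49.6%. Among the 56 genes with several probe sets, all were lower in 38 genes at 24 months and in 45 genes at 12 months, and in 12 genes they lay on both sides at 24 months. In 11 genes at least 1 probe set passed. In Rpl7a 9 of 17 probe sets fell, although the one that stands for it did not pass, at -0.14 with an adjusted p of 0.0869. Rpl13, Rpl9, Rpl38, Rps15 and Rps27 had all of their probe sets lower at 12 months and none lower at 24 months, with medians at 24 months of 0.054, 0.049, 0.16, 0.075 and 0.039.

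At 24 with 12 months, no ribosomal protein gene passed in limma, where 0.0253% of all probe sets did, and at an unadjusted p under 0.05 5 were lower and 2 higher, where 6.35% of all probe sets were lower and 4.76% higher. The median difference was 0.013, with 33 of 76 negative, beside -0.020 for all probe sets. Its sign changed in batch G150 alone, where it was -0.015, without the arrays whose name carries an added suffix, at -0.0042, and without replicate 7 at 24 months, at -0.0010. Rpl38 had the largest difference: it ranged from 10.75 to 11.57 at 12 months with a median of 11.14, and from 11.44 to 11.64 at 24 months with a median of 11.52. Of the 12-month livers, replicate 2 alone reached the 24-month range. The difference was 0.45 ± 0.11, higher in 7 of 7 livers than the 12-month mean, with an adjusted p of 0.107 in limma. Rps4l ranged from 7.11 to 7.77 at 12 months and from 6.67 to 7.04 at 24 months, so its groups did not overlap, as held for 0.163% of all probe sets, and it differed by -0.41 ± 0.10 with an adjusted p of 0.123. Rpl13a, also known outside the ribosome as a repressor of translation after interferon, differed by 0.19 ± 0.059 with an adjusted p of 0.193. Rpl10l and Rps19bp1 differed by -0.22 and -0.17, with adjusted p of 0.523 and 0.393.

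Livers of the switched and lifelong groups at 24 months, which share age and differ in how the first year was fed, gave no call for this family. In limma 0 of 76 genes passed, where 0.0197% of all probe sets did, and at an unadjusted p under 0.05 5 were lower and none higher, where 4.02% of all probe sets were lower and 3.56% higher. The median difference was -0.023, with 49 of 76 negative, beside -0.0049 and 52.0% negative for all probe sets, and the within-batch medians were -0.016, -0.037 and -0.059. Without lifelong replicate 4, 6 or 7 the median was -0.039, -0.0093 or -0.0042, and without switched replicate 5 it was -0.014. The largest difference was again that of Rpl38, which ranged from 10.87 to 11.60 in the switched group with a median of 11.21. It was -0.35 ± 0.10 with an adjusted p of 0.354. Rplp0 ranged from 12.16 to 12.42 in the switched group and from 12.33 to 12.58 in the lifelong group. It was lower than the lifelong mean in 8 of 8 livers, with a difference of -0.16 ± 0.050 and an adjusted p of 0.36. Rpl4, a protein of the exit tunnel wall, differed by -0.17 ± 0.056, Rpl8 by -0.14 and Rps10 by -0.084, with adjusted p of 0.45, 0.589 and 0.607. The largest positive differences were 0.15 for Rps19bp1, 0.13 for Rpl14 and 0.11 for Rpl26, and Rps23rg1 and Rpsa differed by -0.23 and -0.18, with adjusted p from 0.669 to 0.894. Each of the 6 genes called at 24 with 6 months had a switched-group median on the same side of its 6-month median as the lifelong group: 12.11 for Rpl12, 12.07 for Rps26, 9.03 for Rps3a1, 11.85 for Rpl10a and 6.53 for Rps23rg1, while Rpl37 ranged from 10.85 to 11.05. The 6 genes were chosen by their difference from these same 6-month livers, which favours the same side, so it is no separate evidence. The switched group was not tested against the 6-month livers.

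**Figure D3:**
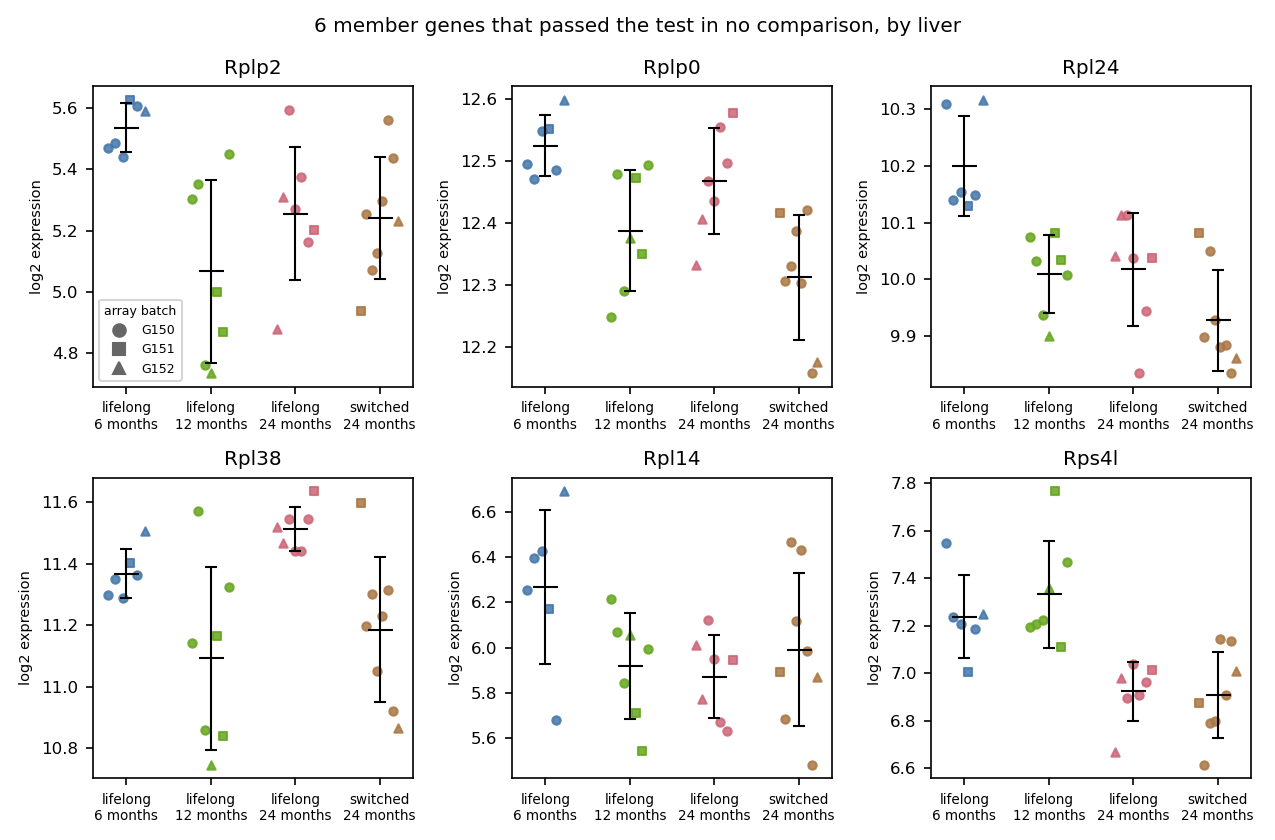
Log2 expression (vertical axis, a separate scale in each panel) of 6 genes with large differences that passed in no comparison, 1 point for each liver, with point shapes for array batches and bars for the group mean ± SD. Rpl38 spans 10.75 to 11.57 at 12 months and only 11.44 to 11.64 at 24 months, and every 12-month liver of Rpl24 lies below every 6-month liver.

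Over single livers, the family's level was summed up as the median over the 76 genes of the deviation from each gene's mean over the 28 arrays. It ranged from 0.045 to 0.11 in the 6-month livers, from -0.045 to 0.054 at 12 months, from -0.091 to 0.12 at 24 months and from -0.088 to 0.065 in the switched group. The 6-month livers were the tightest group and all lay above 0, while in each older group 1 liver lay above the lowest of them, and at 24 months that liver lay above them all. In each 6-month liver between 52 and 66 of the 76 genes lay above their own mean, against 24 to 59 at 12 months, 15 to 58 at 24 months and 19 to 55 in the switched group. The highest liver of each of the 3 older groups belonged to array batch G151, with 0.054, 0.12 and 0.065, and batch was a term in every fit above. The part of the batch in these values was not tested.

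**Figure D4:**
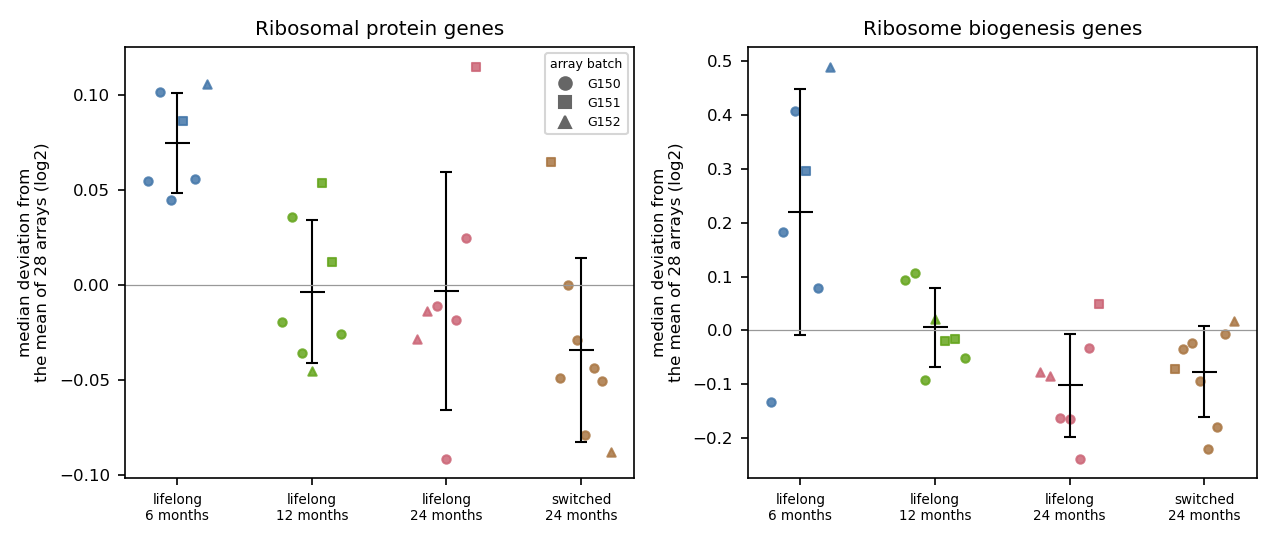
Median deviation from each gene's mean over the 28 arrays (log2, vertical axis) for the 76 ribosomal protein genes (left) and the 42 ribosome biogenesis genes (right), 1 point for each liver, with shapes for array batches and bars for the group mean ± SD. On the left the 6-month livers sit between 0.045 and 0.11, and 1 liver of batch G151 at 24 months, at 0.12, lies above all of them.

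With group and batch removed, the family's median spread between livers was below that of the other bright genes. The residual SD had a median of 0.0954 log2 units over the 76 genes, against 0.13 over the other bright genes, and ran from 0.034 for Rps6 to 0.408 for Rps23rg1. Rpl21, with 0.035, and Rpl41, with 0.042, followed Rps6, and Rpl14, with 0.284, Rpl10l, with 0.235, and Rplp2, with 0.204, stood at the other end. Rps6, Rpl21 and Rpl41 had means of 12.89, 12.62 and 12.13 log2 units. The other bright genes were not matched to the family in brightness, and the part of brightness in the spread was not tested. Residuals of pairs of genes over the 28 arrays had a median Pearson's r of 0.125, with 65.6% of 2850 pairs above 0, where the other bright genes had a median of 0.030 and 53.9% above 0. These are descriptions across genes that share arrays and normalization.

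The genes that build ribosomes had a median further below 0 than the ribosomal proteins at both ages. Of 42 measured ribosome biogenesis genes, 21 fell and 0 rose at 24 with 6 months in limma, against 2.63% and 2.1% of all probe sets. At an unadjusted p under 0.05, 30 were lower and 0 higher, against 11.2% and 8.04%. The median was -0.34, with 39 negative. At 12 with 6 months 2 fell (Heatr1 and Rrp12), against 0.228% of all probe sets, with a median of -0.23 and 40 negative. Wdr12, which joins Pes1 and Bop1 in maturing the large subunit, fell by 0.55 ± 0.09 with an adjusted p of 0.00125 at 24 months. Heatr1, needed for rRNA transcription and small subunit processing, fell by 0.64 ± 0.11 with an adjusted p of 0.00196 at 24 months, and by 0.50 with an adjusted p of 0.0389 at 12 months. Nop16 fell by 0.56, with an adjusted p of 0.00286 in limma. In the switched with lifelong comparison the list's median was 0.049, with none passing, where 0.0197% of all probe sets did. At an unadjusted p under 0.05, 1 gene lay on each side, where 4.02% of all probe sets were lower and 3.56% higher. The list's summed linear level ranged from 13059 to 17547 at 6 months, 12864 to 14336 at 12 months, 12338 to 14030 at 24 months and 11858 to 13324 in the switched group. Replicate 1 at 6 months lay below every 12-month liver on the median deviation of this list, at -0.13, while its ribosomal protein value was 0.055. The difference between the lists was not tested.

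Of 26 translation factor genes, 4 fell and 2 rose at 24 with 6 months, where 2.63% of all probe sets fell and 2.1% rose. The median over the 26 genes was -0.099, with 21 negative. At 12 with 6 months their median was -0.093 with 23 negative (88.5%), beside -0.075 and 88.2% for the ribosomal protein genes. Eif2s2, a subunit of the factor that brings the initiator tRNA, fell by 0.50 ± 0.071 with an adjusted p of 0.000443 in limma, and had already fallen at 12 months, by 0.31 with an adjusted p of 0.0427. Eif3b, Eif5 and the cap-binding protein Eif4e fell by 0.24, 0.22 and 0.24, while the helicase Eif4a2 and its partner Eif4b rose by 0.37 and 0.24. Of 18 genes of mTOR signalling and of the control of oligopyrimidine messengers, 1 fell, where 2.63% of all probe sets did. This gene was Sesn2, a stress-induced inhibitor of mTOR complex 1, which fell by 0.41 with an adjusted p of 0.0293 in limma. Larp1 and Mtor were among those that did not pass. The median over the 18 genes was -0.075, with 13 negative (72.2%). Of 74 mitochondrial ribosomal protein genes, which serve a separate ribosome, 2 fell (Mrps10 by 0.31 and Mrpl37 by 0.22), where 2.63% of all probe sets fell. Their median was -0.038 with 60.8% negative, against -0.016 and 54.4% for all probe sets. Fau, whose product is a fusion of a ubiquitin-like protein with a small-subunit protein, and which the rule does not take, differed by -0.031 at 12 and 0.036 at 24 months.

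**Figure D5:**
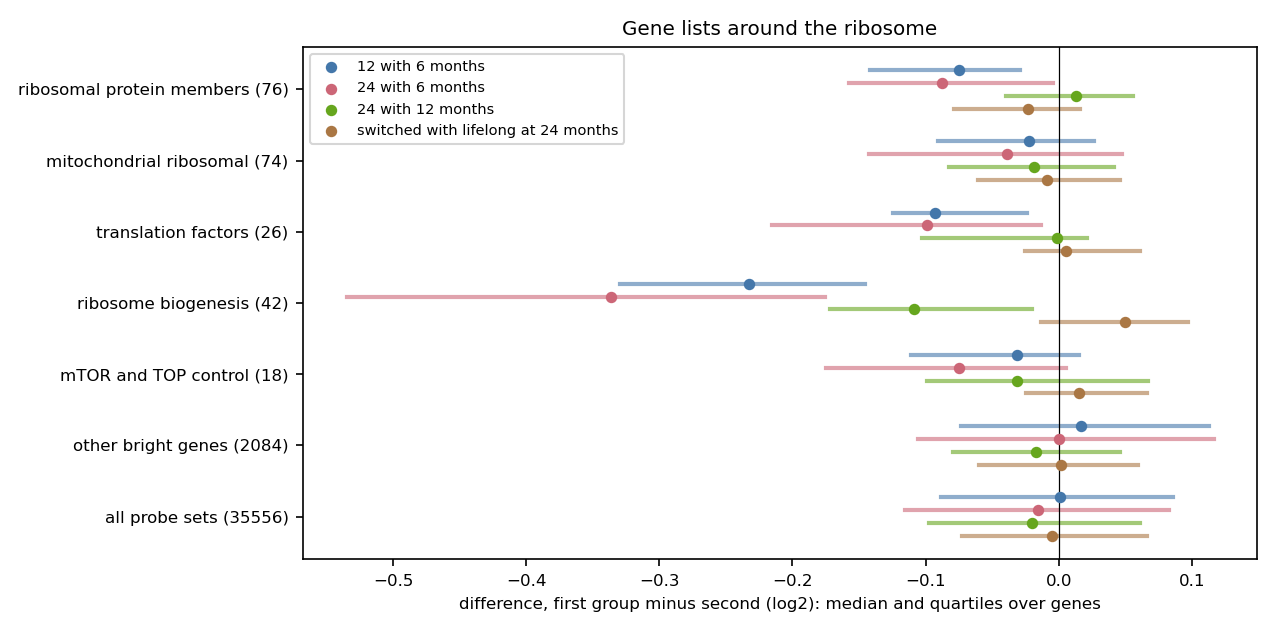
Median (points) and quartiles (bars) over genes of the fitted log2 difference (horizontal axis) in the 4 comparisons, for the 76 ribosomal protein genes, 4 related lists, 2084 other bright genes and all 35556 probe sets. Ribosome biogenesis genes reach -0.34 at 24 with 6 months, ribosomal protein genes -0.087, and all probe sets -0.016.

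Markers of immune cells moved in the same comparison. At 24 with 6 months 4 of 7 B cell markers rose, where 2.1% of all probe sets did, with a median of 0.59. Their summed linear levels ranged from 209 to 272 at 6 months and from 239 to 469 at 24 months. Of 8 plasma cell markers 3 rose (Igkc, Jchain and Ighm, by 3.52, 1.61 and 1.35), with sums of 3596 to 5141 and 4028 to 5883. The median deviation of these 8 markers ranged from -0.64 to -0.15 at 6 months and from -0.020 to 0.78 at 24 months. A linear sum follows the brightest markers of a list, and which markers carry this one was not tested. Of 8 macrophage and Kupffer cell markers 1 rose (Lyz2, by 1.00), with sums of 4081 to 5684 and 3848 to 10453. All 8 were positive, with a median of 0.35. None of the 7 T and NK cell, 5 neutrophil, 6 endothelial, 6 stellate, 4 cholangiocyte, 8 hepatocyte or 2 erythroid markers passed in limma. At an unadjusted p under 0.05, 1 T and NK cell, 3 neutrophil, 1 stellate and 1 erythroid marker were higher. At that limit 1 cholangiocyte and 2 hepatocyte markers were lower. By estimate 6 of 7 T and NK cell and all 5 neutrophil markers were positive, with medians of 0.21 and 0.52. Of the endothelial, stellate, cholangiocyte and hepatocyte markers, 4, 2, 2 and 6 were negative. Over all probe sets 4.73% passed, and 11.2% were lower and 8.04% higher at an unadjusted p under 0.05. Hepatocyte markers had a median of -0.069, and their sums ranged from 67362 to 71621 at 6 months and from 63432 to 70477 at 24 months. At 12 with 6 months no marker of these lists passed in limma, where 0.591% of all probe sets did. At an unadjusted p under 0.05, 1 B cell and 1 endothelial marker were lower, against 6.45% of all probe sets. At that limit 4 plasma cell and 1 stellate marker were higher, against 6.6%. Of 8 hepatocyte markers 5 were negative, with a median of -0.049, and all 8 macrophage markers were negative, with a median of -0.33. In the switched group the sums were 241 to 519 for B cells, 3554 to 5918 for plasma cells, 4337 to 15431 for macrophages and 63687 to 68447 for hepatocytes. The median deviation of the plasma cell markers in that group ranged from -0.12 to 0.31. Array values have no true zero, so no marker can be read as absent. The part of cell composition in the ribosomal protein differences was not tested.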

How the data were processed

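Per the labels' protocols and the submitters' processing notes, liver RNA with an integrity number above 8.0 was hybridised to whole-transcript arrays and summarised with RMA, whose version the sources used here do not give. The deposited values are log2 expression, used as deposited, and the probe sets of all genes were kept: 35556, of which 21218 name 1 gene, 1881 several and 12457 none in the platform annotation. All 28 arrays, 1 for each mouse, entered 1 fit in limma 3.58.1 (R 4.3.3), with group and array batch as fixed terms and empirical Bayes moderation. Tests were two-sided, with Benjamini-Hochberg adjustment over all probe sets and a threshold of 0.05. A difference is the fitted log2 value of the first group minus the second, with its moderated SE. Summed linear levels add up 2 to the power of each log2 value. The fit was tested on simulated data, and Python 3.11.15 drew the plots. All 76 symbols are in the RefSeq table.

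The ribosomal protein genes, the other lists and the motifs were chosen with earlier results of these data known. Named were, in each comparison, the 12 called genes with the smallest p (or, with fewer than 6 calls, the top 6 by p) and the 3 largest differences either way, the 6 with the largest residual SD, paralogs with their partners, the P stalk, Rpl5, Rpl11, Rpsa and Rps6, and up to 3 genes of each other list. Rpl32l and Rps23rg1 were put with the paralogs, and genes singled out by probe set counts, by groups that do not overlap or by lists beyond this rule were chosen, after their values were seen. Alternatives are named in the closing section.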

Additional observations from a re-analysis of the deposited data

Results flagged for a closer look

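Of 128 combinations of a group with a named gene or liver summary, 9 had an end value whose gap to its nearest neighbour, over the group's range, was past Dixon's critical value, and chance gives about 1 in 20. At 6 months, replicate 4 was lowest for Rpl10a, at 11.91 with the next liver at 11.98, and highest for Rpl39l, at 3.17 with the next at 2.99. At 24 months in the lifelong group, replicate 4 was lowest for Rpl13a, at 11.18 with the next at 11.38, and for Rpl37, at 10.78 with the next at 10.96. In the same group replicate 1 was lowest for Rpl4, at 9.40 with the next at 9.62, and for Rps4l, at 6.67 with the next at 6.89. In the switched group, Rpl15 was highest in replicate 1, at 11.31 with the next at 11.08, Rpl26 was highest in replicate 4, at 8.99 with the next at 8.77, and Rpl3l was highest in replicate 6, at 3.77 with the next at 3.52.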

How the results depend on the processing

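The median difference of the family kept its side of 0 under the 11 alternatives that can move it (of 13; a mean-variance trend and 1-gene probe sets alone change only the test) at 12 with 6 months (-0.11 to -0.066), 24 with 6 months (-0.097 to -0.067) and switched with lifelong (-0.051 to -0.0080), but not at 24 with 12 months (-0.015 to 0.040). With each array left out in turn the medians ranged from -0.091 to -0.070, -0.10 to -0.056, -0.039 to -0.0042 and -0.0010 to 0.029, in that order. At 12 with 6 months 1 gene passed after a repeated quantile normalization (Rpl24), and 1 (Rplp2) when the lowest 30 percent of probe sets were left out, with array weights, and among 1-gene probe sets alone, and 0 to 2 with an array left out. At 24 with 6 months 0 passed in batch G150 alone and 0 in G151 and G152 alone, 2 when only the groups compared were fitted, 10 with the lowest 30 percent left out, 10 with a mean-variance trend and robust moderation, and 4 to 8 with an array left out. The batch subsets hold fewer arrays by construction, and the cause of the other changes was not tested. The other comparisons stayed at 0 throughout.

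Of 57 named gene and comparison pairs, 40 kept sign and call under every alternative. Signs turned for 5 genes. At 12 with 6 months these were Rps4l in G150 alone (-0.021, from 0.093) and Rpl11 in G151 and G152 alone (0.032). At 24 with 6 months they were Rpl3l in G150 alone (-0.018) and, in G151 and G152 alone, Rplp1 (0.0067), Rpl11 (0.071) and Rpl32l (0.063), and with an array left out Rpl11 ranged from -0.030 to 0.012, Rpl32l from -0.050 to 0.033 and Rpl3l from -0.035 to 0.040. The replicate numbers did not pair livers: over 39 same-numbered pairs r ran from -0.14 to 0.14, with 4 above 0.1. With the replicate number as a block, 0 genes passed at 12 with 6 months and 6 at 24 with 6 months, with medians of -0.075 and -0.087, and Rpl11 turned to 0.014 at 24 months. Arrays give no counts, so signal below the array median, as for Rpl3l and Rpl39l, sets the limit on the dim paralogs.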
